A study of Caenorhabditis elegans with 6 samples.

Results

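The homeobox genes of C. elegans taken here are 79 of the 19973 protein-coding genes on the 6 nuclear chromosomes. They are the 63 coding genes named ceh- and 16 further genes chosen by name, among them the Hox genes *lin-39*, *mab-5*, *egl-5*, *php-3* and *nob-1*. The rule for the choice reads gene names and no accessibility value, although earlier results of these data were known when it was set. Of the 79 genes, 21 lie on chromosome X, 15 on III, 14 on II, 13 on V, 10 on I and 6 on IV.

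ATAC-seq, in which a transposase inserts sequencing adapters into accessible DNA, was performed on isolated germ nuclei (IGN) of young adults grown at 20 °C from starved, synchronized L1 larvae. The groups were 3 wild type samples (strain VC2010) and 3 samples carrying prde-1(mj207)V (strain SX2499). *prde-1* encodes a subunit of the Upstream Sequence Transcription Complex (USTC), which drives transcription of piRNA genes in the germ line. SX2499 becomes sterile over generations and was therefore backcrossed and used within few generations, and by the methods its worms were harvested at a later hour than wild type to reach the same stage. Genotype, strain history and hour of harvest cannot be told apart. The authors deposited 1 peak list per genotype that pools its 3 samples. No value per sample exists in the lists, depth per sample is unknown, and no difference between the genotypes given here can be set against a spread between replicates.

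Homeobox genes encode transcription factors that bind DNA through a homeodomain, a fold of helices that reads short AT-rich sites. Most act in the soma, where they set the identity of neurons, muscle, epidermis and the somatic gonad, and Hox genes assign position along the body axis. MES-2, MES-3 and MES-6, which form a complex that methylates H3K27, are known to restrict Hox gene expression and to act in the germ line. A few family members have known roles near the germ line: *pal-1* mRNA is stored in oocytes, *ceh-18* acts in the gonadal sheath around them, and *ceh-39* is one of the X-linked signals that count X chromosomes in the embryo. *ceh-20*, *ceh-40* and *ceh-60* encode PBC (Pbx type) homeodomain proteins, and PBC proteins are known as binding partners of Hox proteins.

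A peak was assigned to a gene when it shared at least 1 base with the gene window, which is the gene body together with 500 bp either side of the annotated 5′ end. Ranks order the peaks of a list by the deposited score, which sums −log10 p over the width of a peak, with rank 1 the highest. The wild type list holds 13996 peaks and the *prde-1* list 9674, so a −log10 p was compared only within its list. Ranks can be compared across lists only as a percentage of the list. A *prde-1* rank printed beside a wild type rank is a position in the shorter list and by itself shows no rise or fall. Ranks 8016 and 6780 of a *pal-1* peak, for example, are 57.3% of the wild type list and 70.1% of the *prde-1* list. Intervals in parentheses are Wilson 95% intervals and cover counting error only.

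The peaks that carry the Hox result are shown first, together with examples from *pal-1*, *vab-7* and *ceh-39*. All are on the plus strand of ce11, 5′ to 3′, read from the RefSeq sequence of that assembly, with exonic untranslated bases left out. Capitals mark the homeodomain core TAATTA, the PBC-Hox type site TGATNNAT and CCGCCC, searched on both strands, so GGGCGG is a CCGCCC on the minus strand. The first 4 lines are the Hox peaks in which CCGCCC was noticed, and the line after them is the Hox peak without it. The *ceh-13* peak (chrIII:7554692-7554964) lies upstream of the gene, the *lin-39* stretch (chrIII:7534806-7535000) is part of an intron, the *egl-5* peak (chrIII:7812343-7812523) lies upstream, and *nob-1* has an upstream peak (chrIII:12084972-12085213) and an intronic peak (chrIII:12083304-12083535).
*ceh-13* upstream: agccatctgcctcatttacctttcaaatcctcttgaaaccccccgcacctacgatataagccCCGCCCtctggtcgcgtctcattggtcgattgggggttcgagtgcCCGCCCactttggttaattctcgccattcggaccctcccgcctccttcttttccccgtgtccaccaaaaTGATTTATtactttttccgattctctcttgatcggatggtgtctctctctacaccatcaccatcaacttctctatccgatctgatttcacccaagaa
*lin-39* intron: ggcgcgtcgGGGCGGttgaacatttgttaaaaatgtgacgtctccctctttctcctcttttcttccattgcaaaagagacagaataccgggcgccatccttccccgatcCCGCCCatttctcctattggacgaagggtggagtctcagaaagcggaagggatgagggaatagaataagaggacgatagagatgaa
*egl-5* upstream: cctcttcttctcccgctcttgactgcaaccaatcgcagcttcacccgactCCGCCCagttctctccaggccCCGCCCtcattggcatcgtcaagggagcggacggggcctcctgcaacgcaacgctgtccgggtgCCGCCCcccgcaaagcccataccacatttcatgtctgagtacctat
*nob-1* upstream: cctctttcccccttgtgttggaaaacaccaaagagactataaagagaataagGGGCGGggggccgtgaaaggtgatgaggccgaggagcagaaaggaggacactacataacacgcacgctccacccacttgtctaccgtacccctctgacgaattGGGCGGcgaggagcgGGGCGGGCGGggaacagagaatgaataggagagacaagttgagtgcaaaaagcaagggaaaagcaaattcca
*nob-1* intron: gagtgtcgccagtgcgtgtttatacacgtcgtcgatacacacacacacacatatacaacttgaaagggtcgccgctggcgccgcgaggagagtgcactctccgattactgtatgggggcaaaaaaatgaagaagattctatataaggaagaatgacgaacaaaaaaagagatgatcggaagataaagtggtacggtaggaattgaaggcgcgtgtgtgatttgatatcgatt
The next 3 are the intronic peak of *pal-1* found in both lists (chrIII:4808164-4808347), 277 bases of the better-ranked intronic peak of *vab-7* (chrIII:10922724-10923000), which holds a TAATTA, and 300 bases at the summit of the upstream peak of *ceh-39* (chrX:1856222-1856521), which ranks 1326 in the wild type list.
*pal-1* intron: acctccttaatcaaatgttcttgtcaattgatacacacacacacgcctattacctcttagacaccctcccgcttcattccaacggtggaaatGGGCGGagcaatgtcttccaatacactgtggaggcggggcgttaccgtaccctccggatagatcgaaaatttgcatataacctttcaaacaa
*vab-7* intron: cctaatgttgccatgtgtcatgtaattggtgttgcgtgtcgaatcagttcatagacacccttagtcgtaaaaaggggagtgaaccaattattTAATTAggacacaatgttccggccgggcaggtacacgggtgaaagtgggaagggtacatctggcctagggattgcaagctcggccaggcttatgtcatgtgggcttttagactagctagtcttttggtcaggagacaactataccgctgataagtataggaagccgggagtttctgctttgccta
*ceh-39* upstream: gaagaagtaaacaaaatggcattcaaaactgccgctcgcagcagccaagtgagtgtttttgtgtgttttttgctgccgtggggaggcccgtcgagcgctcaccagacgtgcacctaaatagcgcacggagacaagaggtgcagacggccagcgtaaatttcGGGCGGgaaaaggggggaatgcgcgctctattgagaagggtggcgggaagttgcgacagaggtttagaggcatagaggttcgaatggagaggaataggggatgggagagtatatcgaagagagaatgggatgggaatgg

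The label of the nuclei was checked against marker genes. Of 14 germ line markers, 12 had a peak in their window in each list, and *him-3* and *syp-1* had none in either. Markers of somatic cells also had peaks: 6 of 6 body muscle genes, 5 of 6 neuronal genes, 4 of 6 intestinal genes, 3 of 5 epidermal genes and 2 of 4 somatic gonad genes in wild type, and 5, 5, 5, 1 and 0 of them in *prde-1*. A peak in the list is therefore not particular to germ line genes. Somatic nuclei in the preparation, and their part in the homeobox peaks, were not tested.

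In wild type IGN, 34 of the 79 homeobox genes had a peak in their window (43%, 32.7 to 54), against 39.4% of all coding genes. Within 500 bp of the 5′ end 26 had a peak (32.9%, 23.6 to 43.9), against 30.6%. A peak held the 5′ end itself in 14 (17.7%, 10.9 to 27.6), against 13.2%. All 3 backgrounds lie inside the intervals of the homeobox genes, so the family as a whole was neither enriched nor depleted in peaks beyond counting error.

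In the *prde-1* list, 23 homeobox genes had a peak in their window (29.1%, 20.3 to 39.9), against 31.2% of coding genes. Within 500 bp of the 5′ end the count was 18 (22.8%, 14.9 to 33.2), against 25.1%, and on the 5′ end it was 7 (8.86%, 4.36 to 17.2), against 9.18%. All 23 genes also had a wild type peak, 11 genes had a peak in wild type and none in *prde-1*, and 45 had none in either list. No homeobox gene had a peak in *prde-1* alone. Fewer accessible nuclei and less signal per nucleus cannot be told apart in such pooled material.

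Classes of the family differed in their counts. All 3 PBC genes had a peak in both lists, as did 2 of 3 sine oculis type genes, and both caudal and even-skipped type genes had a wild type peak. Of the 7 LIM homeobox genes only *lim-6* had one, and of the 16 NK, Bar and related genes 4 had one in wild type and 3 in *prde-1*. Among the 9 paired-like genes 5 had a wild type peak and 2 a *prde-1* peak. Over all coding genes 39.4% had a wild type peak and 31.2% a *prde-1* peak. These shares lay inside the Wilson intervals of every class named here except the PBC genes (43.9 to 100 in each list), of which there are only 3. These are descriptions of small classes, and no test between classes was made.

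**Figure D1:**
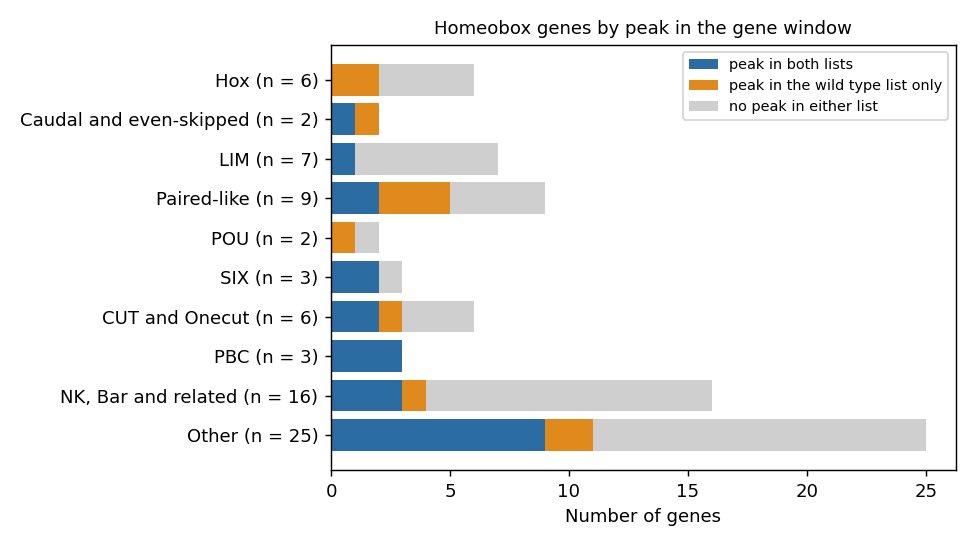
Number of homeobox genes in each class with a peak in the gene window in both lists (blue), in the wild type list only (orange) or in neither (grey). The PBC bar is blue over its whole length of 3 genes, and the Hox bar has 2 genes in orange and 4 in grey.

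The 6 Hox genes had little called accessibility of their own. In wild type 2 of the 6, *lin-39* and *nob-1*, had a peak in their window and in *prde-1* none did. None of the 6 had a wild type peak within 500 bp of the 5′ end of its gene body. With 6 genes this allows a share of up to 50.0%. The 5′ ends of other transcripts are not covered by this count. With those of any annotated transcript, 29 of the 79 homeobox genes had a wild type peak there instead of 26. Which genes were added is not given. Peaks covered 458 of the 29625 bases of Hox gene bodies in wild type (1.55%) and 0 in *prde-1*, against 6.43% and 3.04% of the bases of all coding gene bodies. The Hox genes were thus at or below the background in each measure, in numbers too small to set them apart from it.

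*lin-39* (chrIII:7528641-7536632, minus strand) encodes the mid-body Hox protein that acts in vulval precursor cells. Its wild type peak of 226 bp had its summit in an intron, 1697 bp from the 5′ end, at rank 11128 with a −log10 p of 5.54. Of the bases of this peak, 31 were exonic untranslated sequence. *nob-1* (chrIII:12077793-12084316, minus strand), a posterior Hox gene of the Abdominal-B type, had an intronic peak of 232 bp, 948 bp from the 5′ end, at rank 13755 with a −log10 p of 4.93. Both peaks stand low in the wild type list, and neither had a *prde-1* counterpart.

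The other 4 Hox genes had no peak in their windows. *ceh-13* (chrIII:7555660-7558041, plus strand) is the anterior Hox gene related to labial of Drosophila, *mab-5* (chrIII:7776835-7783454, minus strand) acts in the posterior body and in the migration of neuroblasts, and *egl-5* (chrIII:7814374-7817141, plus strand) patterns the tail. *php-3* (chrIII:12074218-12077556, minus strand) lies next to *nob-1* and is also of the Abdominal-B type.

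Within 15 kb of the 5′ ends the Hox genes did have peaks, and 3 upstream ones, those nearest to *ceh-13*, *nob-1* and *egl-5*, were better ranked than the intronic peaks of *lin-39* and *nob-1*. Upstream of *ceh-13*, a peak of 273 bp began 0.696 kb from the 5′ end, just outside the window, at wild type rank 5853 with a −log10 p of 10.8, and its *prde-1* counterpart stood at rank 6866. Upstream of *nob-1*, a peak of 242 bp began 0.656 kb from the 5′ end at wild type rank 4963, with a −log10 p of 13.1, and at *prde-1* rank 5072. Upstream of *egl-5*, a peak of 181 bp lay 1.85 kb away at wild type rank 10476 of 13996 and *prde-1* rank 9286 of 9674. These upstream peaks of *ceh-13*, *nob-1* and *egl-5* were thus in both lists, unlike the intronic peaks of *lin-39* and *nob-1*.

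Between *ceh-13* and *lin-39*, which are transcribed away from each other, a peak of 280 bp lay 10.1 kb upstream of *ceh-13* and 8.61 kb upstream of *lin-39*. It ranked 7158 in wild type and its counterpart 8287 in *prde-1*. A further peak 3.13 kb downstream of the *ceh-13* 5′ end ranked 9975 and was in the wild type list only. So were a peak 9.95 kb upstream of *nob-1*, at rank 13589, and 2 on the downstream side of *egl-5*, at 5.65 kb (rank 11283) and 10.3 kb (rank 7331). For *php-3* the nearest peaks were the 2 of *nob-1*, 5.75 and 7.42 kb upstream.

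*mab-5* had the longest empty stretch of the Hox genes. Its nearest wild type peaks lay 11.4 and 12.7 kb downstream of its 5′ end, at ranks 891 and 835, at or beside the neighbours *ZK686.6* and *snu-23*. On the downstream side of *egl-5*, peaks at 6.46 and 6.81 kb ranked 2187 and 2699 in wild type and 3408 and 4395 in *prde-1*. The downstream peak of highest rank near *ceh-13*, rank 132 at 14.2 kb, lies at the 5′ end of *R13A5.7*.

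**Figure D2:**
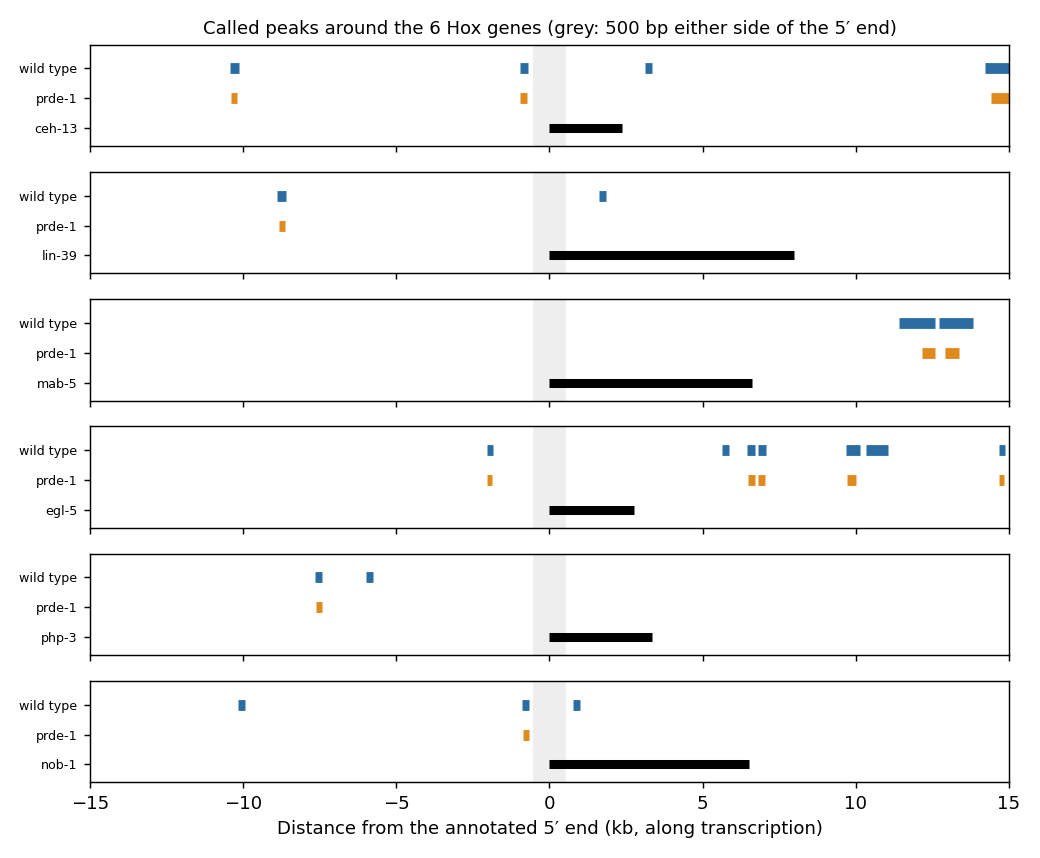
Called peaks within 15 kb of the 5′ end of each Hox gene, in wild type (blue) and *prde-1* (orange), with the gene body in black and distance along the direction of transcription in kb. The grey strip, 500 bp either side of the 5′ end, is empty in all 6 genes, and the peaks of *ceh-13* and *nob-1* lie just to its left.

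*pal-1* and *vab-7*, the caudal and even-skipped type genes, had peaks only in their introns. *pal-1*, which specifies posterior blastomere fates, had an intronic peak of 184 bp 1315 bp from the 5′ end at rank 8016, with a *prde-1* counterpart at rank 6780, and a further one at rank 10786 in wild type only. *vab-7*, which acts in posterior muscle and epidermis and in motor neurons, had intronic peaks at ranks 10884 and 12450, neither with a counterpart. None of the 4 peaks lay within 500 bp of the 5′ end of its gene body. No value per gene is given for the 5′ ends of other transcripts. Counting those, homeobox genes with a *prde-1* peak there rose from 18 to 20.

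The highest-ranked peaks of the family were upstream or near the 5′ end and present in both lists, with exceptions at *ceh-60* and *ceh-8*. The upstream peak of *ceh-2* (empty spiracles type) ranked 715 in wild type, was 1252 bp wide and overlapped a tRNA gene, and its counterpart ranked 1567. *ceh-43*, the Distal-less type gene, had an upstream peak of 1362 bp at rank 733 and a peak of 633 bp at rank 1681 that held the 5′ end, with counterparts at ranks 865 and 2306. Each of the *ceh-43* peaks also overlapped a tRNA gene, and what share of their signal belongs to the tRNA genes was not tested.

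The PBC gene *ceh-20* had an upstream peak of 1059 bp, 836 bp from the 5′ end, at rank 1088 in wild type and 1115 in *prde-1*. *ceh-40* had an upstream peak 194 bp from its 5′ end at rank 6758, with a counterpart at rank 7512. The peak of *ceh-60*, which is known to act on yolk protein genes in the intestine, was of another kind. It was 3325 bp wide, had its summit in a coding exon 7185 bp from the 5′ end, extended into *ets-4* and ranked 802 in wild type, with a −log10 p of 12.3. In *prde-1* it overlapped 2 separate peaks, and the better-ranked of them, at that summit, was 315 bp wide and ranked 3660.

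Among the CUT and Onecut genes, *ceh-38* had a peak of 359 bp that held its 5′ end, at rank 1082 in wild type and 607 in *prde-1*, and that also lay within 500 bp of the 5′ end of *malt-1*. It was the only shared homeobox peak that was not narrower in *prde-1*, at 362 bp. *ceh-39* had an upstream peak of 399 bp, 200 bp from the 5′ end, at rank 1326 in wild type (9.47% of the list) and 1310 in *prde-1* (13.5%). A second peak at rank 5510 had its summit past the 3′ end of *ceh-39* and with the upstream one covered only 0.478% of its body. That second peak also overlapped *T26C11.9* and lay within 500 bp of its 5′ end, so it cannot be assigned to *ceh-39* alone. The neighbouring Onecut gene *ceh-21* had an intronic peak at rank 8682 in wild type only.

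Other peaks of high rank were at less studied members. *ceh-74* had an upstream peak of 340 bp at rank 2320, which also overlapped the coding gene *cest-2.3*. *ceh-83* had a peak of 345 bp at rank 2686 that held the 5′ end. *ceh-100* had an upstream one of 418 bp at rank 2937 that also lay near the 5′ end of *lips-15*. All 3 had *prde-1* counterparts, at ranks 2251, 2199 and 3010. The peak of *ceh-8*, a paired-like gene, ranked 1513 and lay 5303 bp into the gene at the 5′ end of the collagen gene *col-63*, so it cannot be assigned to *ceh-8* alone. Of the 43 homeobox peaks, 6 lay within 500 bp of the 5′ end of another coding gene and 12 overlapped a noncoding gene. No share over the peaks of all coding genes is given beside these counts, so neither is read as particular to homeobox genes.

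Among the members with names other than ceh-, apart from the Hox genes, *pal-1* and *vab-7* described above, *unc-30*, *unc-42* and *lim-6* had peaks. *unc-30*, which sets the identity of GABA motor neurons, had a peak of 327 bp on its 5′ end at rank 10345, and *unc-42*, which acts in command and other neurons, had peaks at ranks 13470 and 13939, the latter on its 5′ end. None of these 3 had a *prde-1* counterpart. *lim-6*, a LIM homeobox gene of GABA neurons, had an intronic peak 1045 bp from the 5′ end at rank 7625 in wild type and 4772 in *prde-1*. *unc-4* (motor neurons), *mec-3* (touch receptor neurons), *ttx-3* (interneurons), *lim-4* (olfactory neurons), *lin-11* (vulva and neurons), *lim-7* (a gene expressed in gonadal sheath) and *ceh-18* had no peak in either list. For *ceh-18* the nearest wild type peak was 18305 bp from the 5′ end, and for *lim-4* it was 27268 bp away.

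The remaining genes with a wild type peak on the 5′ end were *ceh-27*, *ceh-30*, *ceh-34*, *ceh-37*, *ceh-45*, *ceh-82*, *ceh-86*, *ceh-92* and *ceh-99*. The best placed was *ceh-99* at rank 3758, followed by *ceh-27* at 6471, *ceh-34* (sine oculis type) at 7323 and *ceh-82* at 7841. *ceh-37* (Otx type) at rank 8987, *ceh-30* (BarH type) at 12837 and *ceh-45* (goosecoid type) at 12831 were in wild type only. At 9 genes the window held 2 wild type peaks, the most of any member: *ceh-34*, *ceh-37*, *ceh-38*, *ceh-39*, *ceh-43*, *ceh-88*, *pal-1*, *unc-42* and *vab-7*.

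**Figure D3:**
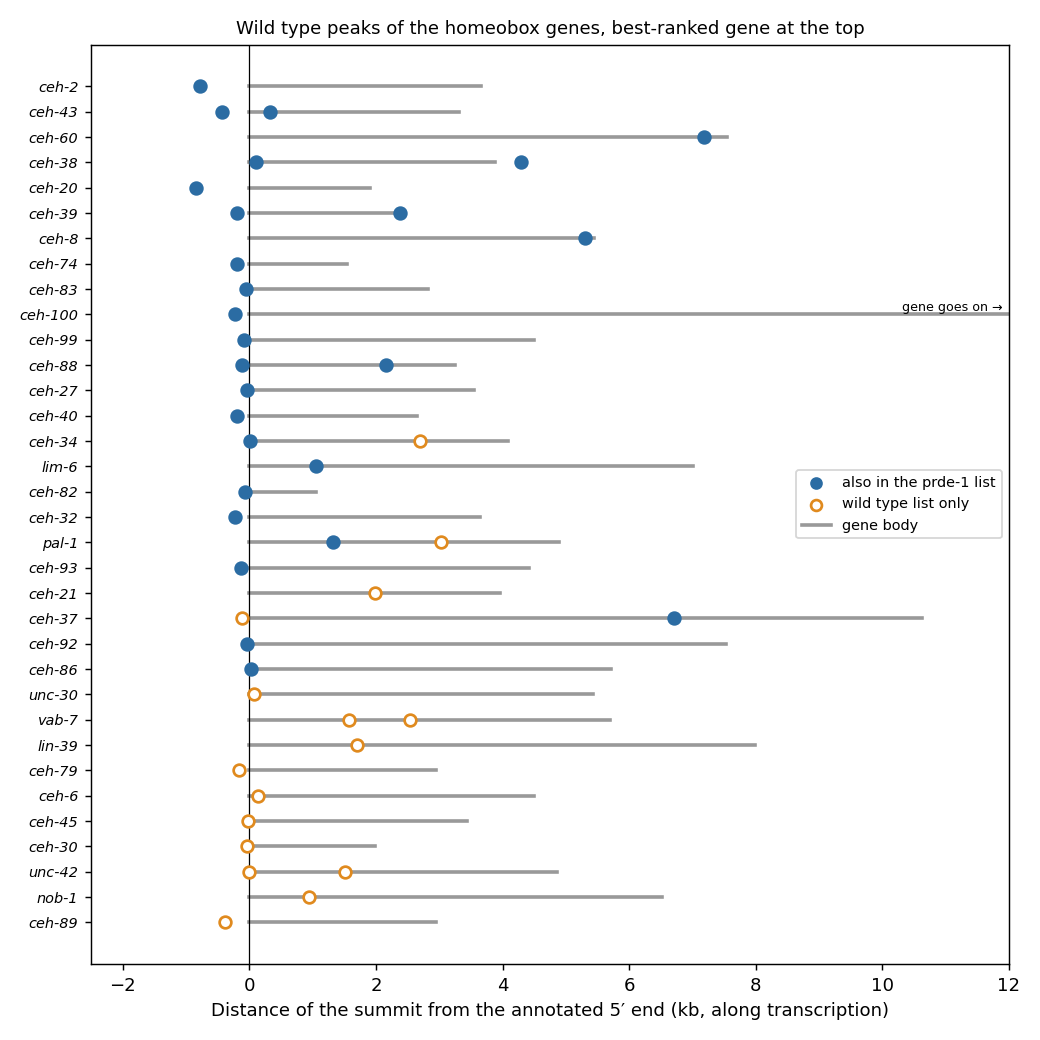
Summit position of each of the 43 wild type peaks in the windows of the 34 homeobox genes, in kb from the annotated 5′ end along transcription, with filled points for peaks also in the *prde-1* list, open points for wild type only and grey lines for gene bodies. Genes are ordered by their best rank, and the open points gather in the lower part of the plot, from *ceh-21* down, with single ones at *ceh-34* and *pal-1* above it.

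Of the 43 wild type peaks, 16 had no *prde-1* counterpart (37.2%, 24.4 to 52.1), against 36.5% of the wild type peaks at all coding genes. Counted by gene, 11 of the 34 with a wild type peak had none in *prde-1* (32.4%, 19.1 to 49.2), against 21.8% of all coding genes with a wild type peak and 15% of *nhr-* genes, the large family of nuclear hormone receptor genes. The background of coding genes lies inside the interval. Of the homeobox genes with a peak 26.5% had 2, and of all coding genes with a peak 36.2% had 2 or more; the part of this in the gene count was not tested.

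Which homeobox peaks were missing from the *prde-1* list followed the wild type rank. In the upper 50% of the wild type list, 0 of 17 homeobox peaks had no counterpart, which allows a share of up to 17.6%, against 7.01% of peaks at all coding genes. In the lower 50% it was 16 of 26 (61.5%), against 65.7%. Divided into 10 bins of equal number by rank, none of the 22 homeobox peaks in the first 6 bins was without a counterpart, which allows a share of up to 13.6%. In the following bins it was 2 of 5, 4 of 6, 2 of 2 and 8 of 8. Of all wild type peaks in those bins, 53.4%, 67.8%, 82.3% and 89.9% had no counterpart. Over all peaks the share had risen from 0.5% in the first bin to 19.6% in the fifth, and further in the sixth. The rise in loss toward low ranks was thus not particular to homeobox peaks. The median rank of the homeobox peaks was 8020, at 57.3% of the list, against 50.3% for peaks at all coding genes. Had each bin lost the share of all its peaks, 18.2 of the 43 homeobox peaks (42.3%) would have been without a counterpart, and 16 were.

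All 27 *prde-1* peaks in homeobox windows overlapped a wild type peak. A count of 0 in 27 allows a share of up to 11.1%, and over all coding genes 1.73% of *prde-1* peaks had no wild type counterpart. Of the 27 shared wild type peaks, 26 had a narrower counterpart (96.3%, against 86.9% of all shared peaks), with a median width ratio of 0.869 against 0.893. Where a wild type peak overlapped 2 *prde-1* peaks, as at *ceh-60*, *ceh-2* and *ceh-100*, only the better-ranked one was measured, so a split peak counts as narrower. At *ceh-38*, *ceh-8*, *lim-6* and *ceh-88* the counterpart stood at a better relative rank in the shorter *prde-1* list than the wild type peak did in its own, as it did for 12.1% of all shared peaks. Peaks at the 27 positions were thus narrower in *prde-1* nearly throughout, as peaks were in the list as a whole.

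**Figure D4:**
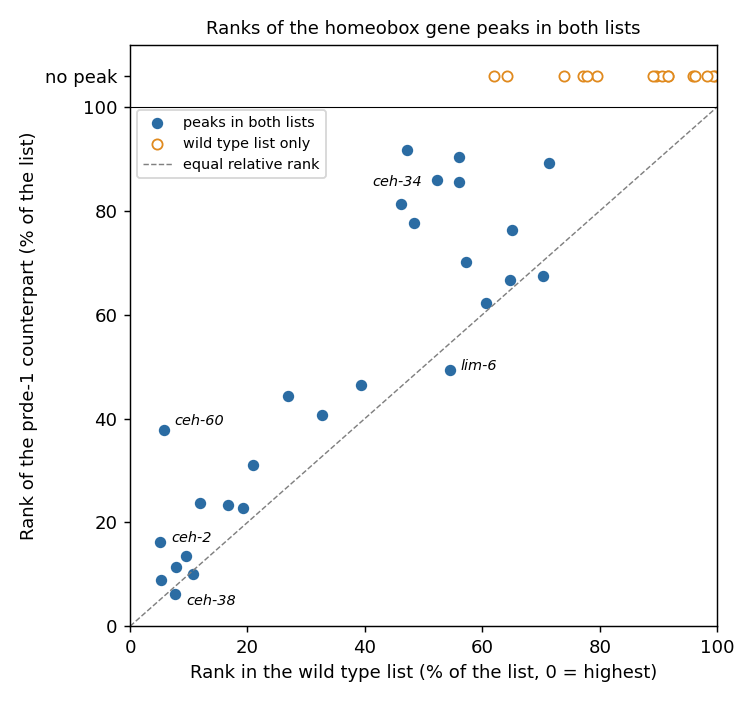
Rank of each homeobox peak in the wild type list against the rank of its *prde-1* counterpart, both as a percentage of the list with 0 the highest, and peaks without a counterpart in the strip at the top. The open points of the wild type only peaks start past 60 on the horizontal axis, and *lim-6*, *ceh-38*, *ceh-8* and one *ceh-88* peak lie below the dashed line of equal relative rank.

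The summits were placed against the annotation. In the coding genes as a whole 16.3% of peak and gene pairs had the summit in a coding exon, and at the homeobox genes 1 of 43 did (2.33%, 0.412 to 12.1), that of *ceh-60*. In exonic untranslated sequence it was 8 of 43 (18.6%, 9.74 to 32.6) against 5.86%. Both backgrounds lie outside the intervals, which count pairs as independent and were set with no test of the difference. The shares upstream of the gene (20 of 43, 46.5%, against 42.1%) and in introns (12 of 43, 27.9%, against 29.7%) did not stand apart.

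Of the 12 intronic homeobox peaks 8 had no *prde-1* counterpart (66.7%), and of the 20 upstream peaks 5 had none (25%). In all coding genes the shares were 42.1% and 15.7%. Loss was more frequent in introns than upstream in both the homeobox genes and the background, with rank not held equal. The 8 lost intronic homeobox peaks stood at wild type ranks 8682 to 13755, and the 5 lost upstream ones at 8987 to 13902. The lowest-ranked intronic peak with a counterpart, at *ceh-37*, ranked 9111. Whether position matters apart from rank was not tested. Homeobox peaks were also narrow, with a median width of 257 bp against 351 bp at all coding genes and 282 bp at *nhr-* genes. Within 500 bp of 5′ ends it was 269 bp against 327 bp. The score sums over width, and homeobox peaks had a lower median rank (57.3% of the list against 50.3%), so width and rank were not separated. Of the homeobox peaks 6 (14%) ranked in the first of the 10 bins, against 10.3%.

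Gene length moved with these counts. The median homeobox gene was 3250 bp long and the median coding gene 2030 bp. Coding genes were divided by length into 5 bins of equal number. None of the 6 homeobox genes in the shortest bin had a wild type peak, which allows a share of up to 50.0%, against 28.2% of coding genes of that length. In the next 2 bins 2 of 9 (22.2%, against 29.0%) and 3 of 15 (20.0%, against 34.6%) had one. In the second longest bin 13 of 25 had one (52.0%, against 43.5%), and in the longest bin 16 of 24 (66.7%, against 61.5%). In *prde-1* the counts from the shortest bin on were 0 of 6 (against 21.9%), 2 of 9 (22.2%, against 22.9%), 2 of 15 (13.3%, against 28%), 9 of 25 (36%, against 34.3%) and 10 of 24 (41.7%, against 49.1%). In wild type the homeobox genes thus stood below the background in the 3 shorter bins and above it in the 2 longer ones, with every background inside the wide intervals.

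**Figure D5:**
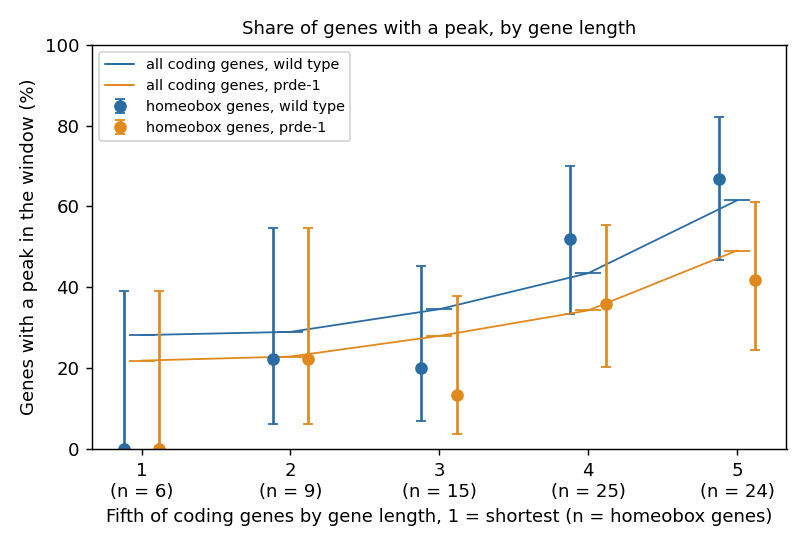
Share of homeobox genes with a peak in the gene window (points with Wilson 95% intervals) and of all coding genes (lines), by 5 bins of gene length from shortest to longest, in wild type (blue) and *prde-1* (orange). The share is highest in the longest bin in both lists, and each line passes within the intervals of the points.

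The covered length of gene bodies was below the background, with no interval set and no test made. Peaks covered 2.21% of the bases of homeobox gene bodies in wild type and 0.909% in *prde-1*, against 6.43% and 3.04% of all coding gene bodies. In the longest bin of genes it was 2.44% against 5.86% in wild type and 0.749% against 2.83% in *prde-1*. The second longest bin gave 2.9% against 6.57% and 1.75% against 2.91%. A similar share of homeobox genes thus carried peaks in the window, but fewer of the bases of their gene bodies lay inside peaks. The 2 measures differ, because the window also holds the 500 bp before the 5′ end. Of the 43 homeobox summits 20 lay upstream of the gene (46.5%, against 42.1% at all coding genes).

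On chromosome X, which is largely silent in early germ cells, 9 of 21 homeobox genes had a wild type peak (42.9%) and 6 a *prde-1* peak (28.6%). On the autosomes it was 25 of 58 (43.1%) and 17 (29.3%). In all coding genes 39.2% of X-linked and 39.4% of autosomal genes had a wild type peak, and 29.9% and 31.4% a *prde-1* peak. Within 500 bp of the 5′ end, 3 of 21 X-linked homeobox genes had a *prde-1* peak (14.3%) and 15 of 58 autosomal ones (25.9%), against 22.3% and 25.6% of all coding genes, and no difference between X and autosomes was tested.

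For the 45 homeobox genes without a wild type peak, the nearest wild type peak lay 696 to 27777 bp from the 5′ end, with a median of 5666 bp against 5095 bp for all coding genes without a peak. It was within 2000 bp for 8 of the 45 (17.8%, against 19.1%) and beyond 10000 bp for 9 (20.0%, against 23.8%). *ceh-13* was the only one with a peak within 1000 bp.

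Of 23 homeobox genes with other names, 13 had a wild type peak and 6 a *prde-1* peak, the 6 being duxl-1, *dve-1*, hmbx-1, irx-1, pros-1 and *unc-62*, whose protein is the Meis type partner of the PBC proteins. The 7 of 13 with a wild type peak and none in *prde-1* (53.8%, 29.1 to 76.8) were *pax-3*, *ttx-1*, *unc-39*, *unc-86*, *vab-3*, *zag-1* and *zfh-2*. The share over all coding genes with a wild type peak was 21.8%, below that interval, and the difference was not tested. Of 269 *nhr-* genes, 107 had a wild type peak (39.8%) and 96 a *prde-1* peak (35.7%). Of the genes for repressors and maintenance factors of Hox genes, *mes-2*, *mes-3*, *mes-6*, *sop-2*, *sor-1*, *lin-49* and *lin-59* all had peaks in both lists. That is 7 of 7, against 39.4% of all coding genes in wild type and 31.2% in *prde-1*, and no test against other lists was made.

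Motifs were counted in the 300 bases from 250 before to 50 after each 5′ end, and in 300 bases around each wild type summit, on both strands. TAATTA was in 15.2% of homeobox promoters against 15.5% of all promoters, and in 9.3% of homeobox peaks against 9.01% of all peaks. TGATNNAT was in 24.1% of promoters against 23.6%, and in 23.3% of peaks (13.2 to 37.7) against 16.7%. The homeodomain type sites were thus as frequent at homeobox genes as elsewhere, within counting error.

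GAGAGA, a short stand-in for GAGA-type repeats, was in 28 of 79 homeobox promoters (35.4%, 25.8 to 46.4) against 21.8% of all promoters and 30.9% of *nhr-* promoters, and in 39.5% of homeobox peaks against 38.7%. CCGCCC was searched only after it had been noticed in the Hox sequences printed above, where 4 of the 5 searched peaks held it, so its counts are descriptions. It was in 13 of 43 homeobox peaks (30.2%, 18.6 to 45.1) against 11.9% of all peaks, and in 15 of 79 promoters (19%, 11.9 to 29.0) against 7.83%. The other 23 homeobox genes had it in 9 promoters (39.1%, 22.2 to 59.2) and the *nhr-* genes in 8.18%.

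Base composition moved with CCGCCC over all peaks, from 4.53% in the lowest of 5 bins of GC content to 21% in the highest. Had the homeobox peaks of each bin held it at the share of all its peaks, 5.03 of the 43 would have carried it, against the 13 that did. The *lin-39* peak, in which CCGCCC was noticed, is among the 43, so this too is a description and no test. Homeobox promoters had a median GC content of 37.0% against 34.3%, and the part of GC content in the promoter counts was not tested. A match is a run of letters and not a bound site.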

How the data were processed

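The authors trimmed the ATAC-seq reads of the 6 samples with cutadapt, mapped them with bowtie2 (ce11), kept well-mapped reads, discarded mitochondrial reads and duplicates, downsampled and merged replicates, retained short fragments, applied the Tn5 offset and called peaks with Genrich. The Genrich version and whether its input was merged are not given in the sources used here. These steps could not be varied, and fainter peaks depend on the depth kept. The deposited lists give a score (area under the −log10 p curve) and the deposited −log10 p at the summit, unadjusted for multiple testing. Differential tests on reads were not repeated.

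Genes came from Ensembl release 115 (WBcel235, the ce11 assembly). Gene bodies plus 500 bp either side of the 5′ end were intersected with the peaks, at least 1 shared base counting as overlap, in Python 3.11.15 with numpy 2.4.6, pandas 2.3.3, scipy 1.17.1 and matplotlib 3.10.9. Shares carry Wilson 95% intervals, and a share of 0 the limit of 3 counts. The overlap functions were tested on simulated data. Members and lists were chosen with earlier results of these data known. Named are all Hox genes, members not named ceh-, the 10 best-ranked members, members with a wild type peak on the 5′ end or the most peaks, and *ceh-18*, *ceh-20*, *ceh-38*, *ceh-39* and *ceh-60*; genes named beside them as neighbours or examples (such as *ceh-21*, *ceh-40* and *ceh-88*) were chosen after their values were seen. Alternatives varied the window, overlap and score threshold. Protein sequences and *ceh-44*, a name not found among the coding genes, were not used here.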

Additional observations from a re-analysis of the deposited data

How the results depend on the processing

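No paired analysis was possible because each list pools its 3 samples. Of 33 alternative values for 5 results, 25 stayed within the Wilson interval of the reported value and 8 left it. With the upper 50% of each list by score, homeobox genes with a wild type peak fell to 17.7% in the window (all coding genes 25.9%) and 13.9% at the 5′ end (19.9%), and with a *prde-1* peak to 16.5% (18.9%) and 11.4% (14.9%). In the gene body without the 500 bp around the 5′ end the shares were 19% (21.7%) and 8.86% (12.7%). Wild type peaks without a counterpart were 17.6% with the upper 50% of each list (34% at all coding genes) and 7.41% with equal numbers of peaks from each list (17.1%). These settings use fewer peaks or a smaller window by construction. Leaving out peaks that overlap tRNA genes, an alternative chosen after seeing the data, gave 40.5% in wild type and 26.6% in *prde-1*. Depth is unknown, replicates could not be left out of the pooled lists, and a peak below the calling threshold is not the absence of accessibility.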
